A study of Mus musculus with 4 samples.

Results

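Cytochrome c oxidase, complex IV of the respiratory chain, was read here through 31 nuclear genes out of 17485 in the table: 7 genes of subunits chosen as constant between tissues and 24 genes for the heme, copper, assembly and messenger RNA steps that build the enzyme. The members were chosen by gene symbol from textbook roles, and all 31 symbols were found. Subunits with paired tissue isoforms were left out, although Cox6b2, which was kept, is itself known as the testis form of subunit 6b. The samples were whole hearts of 8-week-old male mice, 2 libraries from wild-type (WT) and 2 from Klf9 knockout (Klf9 KO) animals. Klf9 encodes a Krüppel-like transcription factor with zinc fingers. The labels gave neither the strain, nor the allele or cell type of the deletion. They did not tie libraries to separate animals either, so the p-values rest on a spread between libraries that may be technical. The study addressed the influence of Klf9 on mitochondria of the heart.

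Complex IV passes electrons from cytochrome c to oxygen and pumps protons across the inner membrane. Its catalytic core is encoded by mitochondrial DNA and carries heme a and copper, and a ring of small nuclear-encoded subunits surrounds that core. Dedicated factors make heme a, carry copper across the intermembrane space, hold the newly made core subunits and stabilise or translate their messenger RNAs. A working heart lives on oxidative metabolism and needs a large amount of the finished enzyme. The core subunits encoded by mitochondrial DNA are not analysed here.

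Promoters are printed for 3 of the genes that fell in the knockout and for the one that rose, to show what stands upstream of members that moved. RefSeq windows (build GRCm38.p6, 250 bases before to 50 after each start) matched 27 of the 31 members. The lines give upstream stretches without annotated exons, 5′ to 3′ on the strand of the gene. Capitals mark each match, on either strand, to GGGCGG (the GC box), CACCC (a box that Krüppel-like factors are known to bind), CCGGAAG (an ETS site, the kind read by the nuclear respiratory factor GABP) or TGCGCA. Coa4 lies at chr7:100536951-100537070, plus strand, Pet100 at chr8:3621428-3621547, plus strand, Cox19 at chr5:139345234-139345353, minus strand and Cox6b2 at chr7:4753095-4753214, minus strand.
Coa4: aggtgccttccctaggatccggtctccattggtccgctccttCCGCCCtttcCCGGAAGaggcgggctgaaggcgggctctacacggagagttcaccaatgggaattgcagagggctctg
Pet100: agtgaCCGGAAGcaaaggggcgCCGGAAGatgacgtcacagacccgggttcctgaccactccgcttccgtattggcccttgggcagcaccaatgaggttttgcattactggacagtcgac
Cox19: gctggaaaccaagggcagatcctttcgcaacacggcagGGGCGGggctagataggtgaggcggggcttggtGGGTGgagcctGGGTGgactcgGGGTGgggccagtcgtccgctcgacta
Cox6b2: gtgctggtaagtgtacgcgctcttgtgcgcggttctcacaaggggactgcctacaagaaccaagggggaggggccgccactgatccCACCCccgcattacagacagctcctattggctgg

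Over the full windows and both strands, CCGGAAG stood in 12 of 27 member promoters, 5 of the 11 whose genes fell and 7 of the other 16. It stood in 18.5% of the 9672 promoters of tested genes and in 9.12% of all 27025. GGGCGG stood in 8 of the 11 and 9 of the other 16, and in 65.2% of promoters of tested genes and 35.9% of all. CACCC stood in 7 of the 11 and 11 of the other 16, and in 62.9% and 56.7%. TGCGCA, the repeated core of the NRF1 site (another nuclear respiratory factor), stood in 1 of the 11 and 1 of the other 16, and in 14.7% and 8.06%. In the 4 stretches printed, 0 matches overlapped another. Each of the 4 holds a match. Cmc2, which also fell and has a stretch of 120 bases, holds 0 matches there and is not printed. A match describes letters only and shows no binding.

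The labels and libraries were checked first. Klf9 stood at 74.9 and 58.8 in WT and at 2.66 and 1.99 in Klf9 KO (log2 fold change -4.35 ± 0.20, SE, n = 2 per group; limma adjusted p = 3.46e-06). The sources used here do not say which part of the gene was deleted, and reads from outside that part can remain. Klf9 KO replicate 2 went against its sex label, with the Y-linked genes Kdm5d and Ddx3y at 0.01, where the other 3 libraries had 3.42 to 4.01 and 7.82 to 17.1. The groups also differed in genes other than Klf9: Tnni1, the troponin I of the heart before birth, stood at 0.16 and 0.01 in WT and at 656 and 994 in Klf9 KO. Esr1, which encodes estrogen receptor alpha, stood at 3326 and 2726 in WT and at 0.09 and 0.03 in Klf9 KO. The loss of Klf9 cannot be told apart from whatever else differed between the groups. All values were recovered from deposited ratios, in a unit that was not given, so the depth is unknown and levels are not compared between genes. They summed to 426032 and 489534 in WT and to 409359 and 418974 in Klf9 KO.

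Among the members, 12 assembly genes of complex IV were called lower in knockout hearts by limma, and none of the 7 constant subunits was. Only 1 gene rose, the testis form Cox6b2. By the authors' DEGseq q below 0.001, given further on, Cox5a, Cox5b, Cox6b1, Cox6c, Cox7b and Cox7c were lower as well. A missed call is not always a smaller change. Cox6c and Cox7b did not pass at log2 fold changes of -0.66 and -0.71 (SE 0.36 and 0.34). Sco1, Cox19 and Coa3 passed at -0.49, -0.50 and -0.52 (SE 0.17, 0.17 and 0.19). Cox5a, Cox5b, Cox6b1 and Cox7c stood at -0.33, -0.29, -0.34 and -0.29. The genes that fell were grouped here under copper delivery (Cox16, Cox17, Cox19, Sco1, Sco2, Cmc2), other assembly factors (Coa3, Coa4, Coa5, Pet100) or messenger RNAs of the mitochondrial genome (Taco1, Slirp). Their knockout means were 38.4% to 69.9% of the wild-type means. The test was limma on log2(value + 1) over 12135 genes (at 1 or more in 2 or more libraries), with Benjamini-Hochberg adjusted p below 0.05. Of 30 members tested, each at 1 or more in all 4 libraries, 12 were lower and 17 did not pass. Among all genes tested 17.0% were lower and 27.7% higher. RLE scaling, which sets the median ratio of the libraries to a common level, gave 16 lower and 1 higher member, against 21.4% and 21.7% of all genes. It moved the median log2 fold change of all genes from 0.12 to -0.012 and the share of higher genes among all calls from 62.0% to 50.4%. The median over the 30 members was -0.50 as fitted and -0.64 after RLE scaling.

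**Figure D1:**
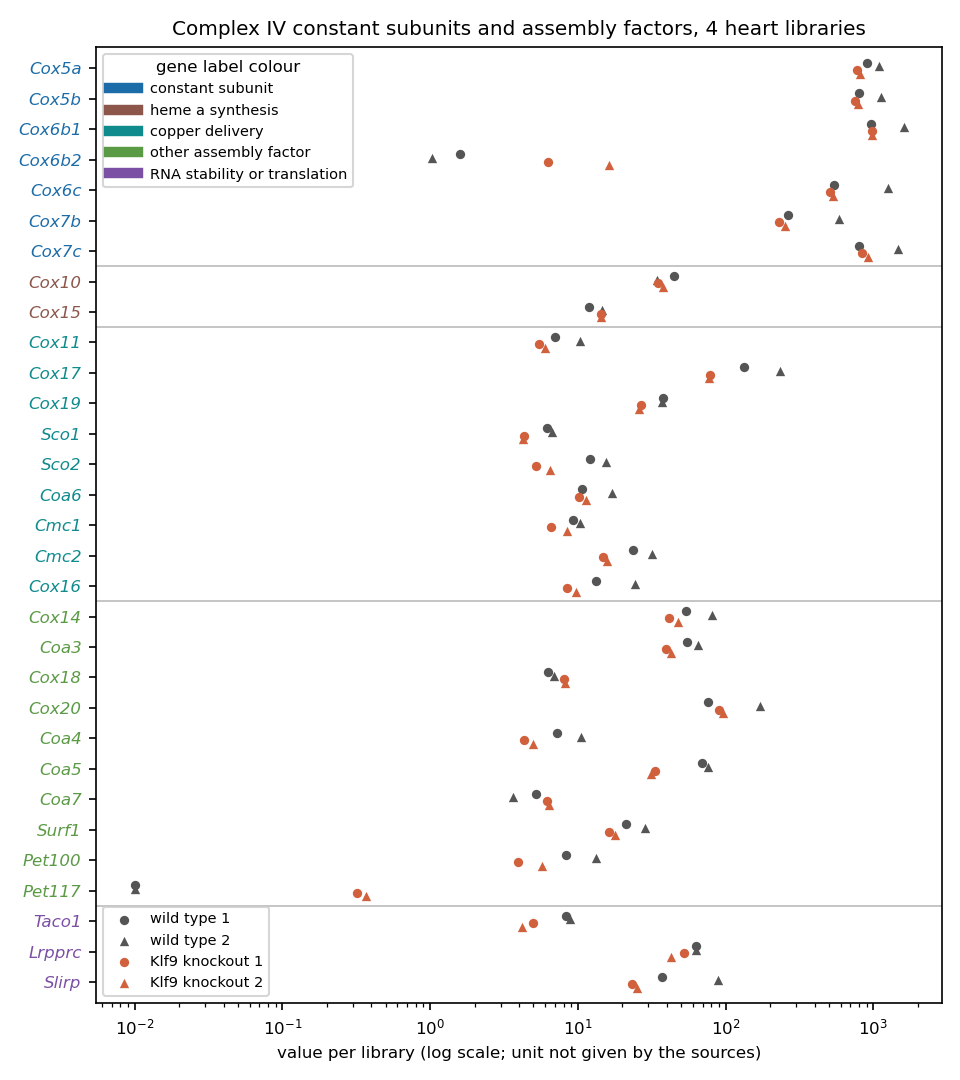
Value of each of the 31 genes in each library, on a log axis, in the unit of the recovered values; circles are replicate 1, triangles replicate 2, grey is wild type and orange is Klf9 knockout. Both knockout libraries lay below both wild-type libraries in 21 of the 30 genes tested, and the wild-type libraries were further apart from each other than the knockout libraries for most of the constant subunits.

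Both knockout libraries lay below both wild-type libraries in 21 of the 30 members tested and above them in 3, Cox6b2, Cox18 and Coa7. Among all genes tested these shares were 30.2% and 45.2%. In 6 members the groups overlapped. Of 30 members with a DEGseq q in the authors' deposited table, 23 were lower and 2 higher (Cox6b2 and Coa7) at q below 0.001, and 5 of the 23 had a log2 ratio of -1 or less (Slirp, Sco2, Coa5, Cox17 and Pet100). The 23 include the constant subunits Cox5a, Cox5b, Cox6b1, Cox6c, Cox7b and Cox7c, none of which limma called with all libraries. Of the 16254 genes with such a q, 23.5% were lower, 34.1% higher and 8.77% lower with a log2 ratio of -1 or less.

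The wild-type libraries were themselves apart in these genes. In 26 of 30 members WT replicate 2 stood above WT replicate 1, with a median difference of 0.41 on the log2(value + 1) scale. Among all genes tested 52.4% stood higher in replicate 2, with a median of 0.03. This difference went with transcript length: its median was 0.50 in the 79 genes with transcripts of up to 500 bases and -0.165 in the 3099 with transcripts of over 4000. Between the knockout libraries the same medians were 0.14 and -0.03. The median length of the members was 999.8 bases and that of all genes tested 2708. Within classes of length the members were still further apart between the wild-type libraries than other genes. Their median was 0.55 against 0.37 in the class of over 500 and up to 1000 bases, which holds 12 members, and 0.37 against 0.16 in that of over 1000 and up to 2000 bases, which holds 8. It was also above that of all genes in the other 3 classes, which hold 2 to 5 members each. With each library centred within 20 classes of length, a step chosen after this was seen, 13 members were lower and 1 higher, against 23.8% and 23.3% of all genes. Of the 12 lower members 11 were called again, Coa3 was not, and Surf1 and Lrpprc were added. The log2 fold changes of 10 members shrank by over 1.5 times under this centring, 1 grew by as much (Cox10, to -0.33) and 1 turned sign (Cox15). Those of Cox5a, Cox5b, Cox6b1 and Cox7c came to -0.096, -0.060, -0.11 and -0.059, and those of Cox20 and Coa6 to -0.055 and -0.084. The other 4 were Cox6c at -0.42, Cox14 at -0.34, Coa3 at -0.29 and Coa7 at 0.28.

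**Figure D2:**
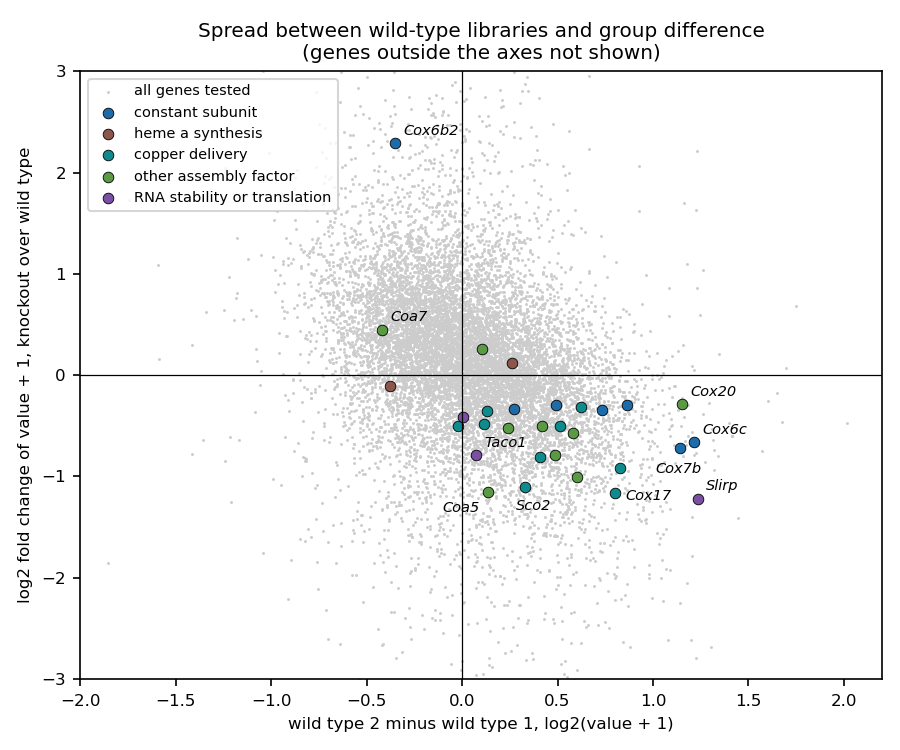
Difference between the wild-type libraries (x axis) against the knockout over wild-type log2 fold change (y axis), both on log2(value + 1); grey points are all genes tested and coloured points the members by role. Slirp, Cox6c, Cox7b and Cox20 differed by over 1 between the wild-type libraries, while Coa5 and Taco1 lay near 0 on that axis with fold changes of -1.15 and -0.79.

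Of the 7 constant subunits, 6 did not pass by limma in either direction, and Cox6b2 rose. Subunits with tissue isoforms, some of which passed, are given further on. Cox5a, which lies on the matrix side of the enzyme, stood at 912 and 1099.6 in WT and at 779 and 815 in Klf9 KO (log2 fold change -0.33 ± 0.23, SE; limma adjusted p = 0.274). Cox5b, the zinc-binding subunit, stood at 801 and 1125 in WT and at 756 and 793 in Klf9 KO. In both genes WT replicate 2 stood highest and the groups did not overlap. Cox6c, Cox7b and Cox7c each span the membrane with a single helix. Cox6c stood at 542 and 1259 in WT and at 513 and 534 in Klf9 KO (-0.66 ± 0.36; limma adjusted p = 0.169). Cox7b stood at 266 and 588 in WT and at 230.4 and 251 in Klf9 KO (-0.71 ± 0.34; limma adjusted p = 0.121). In both, only WT replicate 2 stood high, and WT replicate 1 lay close to the knockout libraries. Cox6b1, the subunit that faces the intermembrane space, stood at 962 and 1602 in WT and at 985 and 973 in Klf9 KO. Cox7c stood at 801 and 1460.5 in WT and at 841 and 926 in Klf9 KO. In these 2 genes the groups overlapped.

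The values of these 6 subunits relative to wild type depended on which wild-type library was used. In the authors' deposited table their median log2 ratio was -0.082 and -0.019 for the knockout libraries over WT replicate 1, and -0.75 and -0.69 over WT replicate 2. Without WT replicate 1 their log2 fold changes ran from -0.46 (Cox5a) to -1.28 (Cox7b). Without WT replicate 2 they ran from -0.20 (Cox5a) to 0.14 (Cox7c), with Cox6b1 at 0.026. Either fit leaves 1 WT library, so its p-values do not measure the spread between WT libraries. With all 4 libraries 0 were lower by limma, and 0 at an unadjusted p below 0.05. Among all genes tested 17.0% were lower, and 2461 of 12135 at an unadjusted p below 0.05.

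Cox6b2 stood at 1.59 and 1.03 in WT and at 6.32 and 16.3 in Klf9 KO, so that the knockout mean was 8.62 times the wild-type mean. Its log2 fold change was 2.29 ± 0.35 (SE; limma adjusted p = 0.00094). The knockout libraries were both high but differed from each other by 1.24 on the log2(value + 1) scale. The call was lost without either WT library in turn, at log2 fold changes of 2.47 and 2.12. In those fits the spread came from the knockout libraries alone. Without Klf9 KO replicate 1 the log2 fold change was 2.91, and without Klf9 KO replicate 2 it was 1.67. Cox6b1, the ubiquitous form of the same subunit, did not pass.

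Copper reaches the core subunits through a chain of small intermembrane space proteins. Of the 9 genes grouped here 6 fell and 0 rose (0 also at an unadjusted p below 0.05). Among all genes tested 17.0% were lower and 27.7% higher, and 3901 of 12135 were higher at an unadjusted p below 0.05. Cox17, the carrier that hands copper on to the Sco proteins, stood at 133 and 232 in WT and at 78.1 and 77.6 in Klf9 KO (log2 fold change -1.17 ± 0.27, SE; limma adjusted p = 0.00803). Sco2, a copper chaperone of the second core subunit, stood at 12.1 and 15.5 in WT and at 5.25 and 6.53 in Klf9 KO (-1.10 ± 0.19; limma adjusted p = 0.00198). In both genes the knockout mean was 42.6% of the wild-type mean and the groups were apart. Its relative Sco1 stood at 6.14 and 6.72 in WT and at 4.33 and 4.27 in Klf9 KO (-0.49 ± 0.17; limma adjusted p = 0.0399). Cox19, a partner in copper transfer, stood at 38.0 and 37.4 in WT and at 26.85 and 25.8 in Klf9 KO (-0.50 ± 0.17; limma adjusted p = 0.0439). In Sco1 and Cox19 the replicates of each group lay close together and the step between groups was smaller than in Sco2.

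Cox16, needed for the copper site of the second core subunit, stood at 13.3 and 24.3 in WT and at 8.40 and 9.71 in Klf9 KO (-0.92 ± 0.26; limma adjusted p = 0.0199). Cmc2, a small protein with paired cysteine motifs, stood at 23.6 and 31.7 in WT and at 14.8 and 15.7 in Klf9 KO (-0.80 ± 0.20; limma adjusted p = 0.0105). Both fell with the groups apart. Cox11, which serves the copper site of the first core subunit, stood at 6.99 and 10.4 in WT and at 5.48 and 5.98 in Klf9 KO and did not pass (-0.50 ± 0.20; limma adjusted p = 0.073). Cmc1, another small protein of this kind, stood at 9.31 and 10.3 in WT and at 6.61 and 8.40 in Klf9 KO and did not pass (-0.35 ± 0.18). Coa6, a partner of the Sco proteins, did not pass either (10.75 and 17.1 against 10.1 and 11.3; -0.32 ± 0.23), and its groups overlapped. Without Klf9 KO replicate 1 the calls of Sco1, Cox19, Cox16 and Cmc2 were lost, and without Klf9 KO replicate 2 those of Sco1, Cox19 and Cmc2.

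Reads of some of these genes cannot be told apart from those of neighbours, since use of strand in counting was not given. In GENCODE vM21, Sco2 shares 66.2% of its exonic bases with Ncaph2 on the opposite strand and 68.3% with Tymp on its own. Ncaph2 stood at 28.4 and 24.2 in WT and at 39.1 and 48.8 in Klf9 KO, the opposite direction to Sco2 (0.71 ± 0.20; limma adjusted p = 0.0175), and Tymp at 0.52 to 0.81. Cox16 shares 56.8% with the overlapping gene Gm20498, which fell as well (1.5 and 4.14 against 0.70 and 1.23; limma adjusted p = 0.0431). Pet100, an assembly factor described further on, shares 52.6% with Pcp2 on the opposite strand, which stood at 0.01 to 0.14. Among members that did not pass, Cox20 shares 91.1% with Hnrnpu and Cox11 48.3% with Tom1l1, both on the opposite strand.

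**Figure D3:**
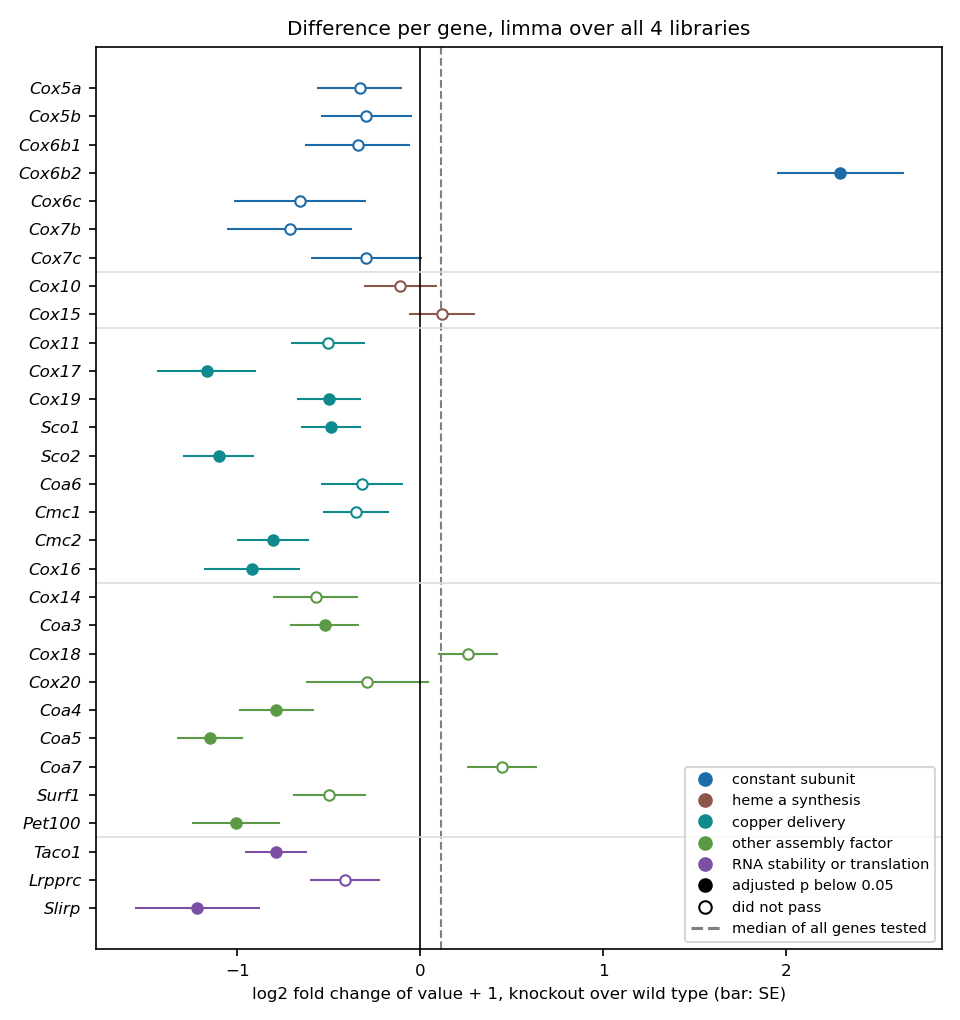
Log2 fold change of value + 1, knockout over wild type, with its SE, for the 30 members tested, grouped by role; filled points passed limma at adjusted p below 0.05 and the dashed line is the median of all genes tested. All 12 filled points left of 0 belong to the copper, assembly and RNA groups, and Cox6b2 is the filled point on the right.

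The enzymes of heme a synthesis, which turn heme b into heme a by way of heme o, showed no call. Cox10, heme o synthase, stood at 44.75 and 34.2 in WT and at 34.8 and 37.6 in Klf9 KO (log2 fold change -0.11 ± 0.20, SE). Cox15, heme a synthase, stood at 11.9 and 14.5 in WT and at 14.3 and 14.4 in Klf9 KO (0.12 ± 0.18). The groups overlapped in both, and neither passed at an unadjusted p below 0.05 (0 of 2). Of all 12135 genes tested, 2461 were lower and 3901 higher at that threshold. The sign was not fixed: Cox10 was at 0.0805 without WT replicate 1, and Cox15 was at -0.021 after RLE scaling.

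Among 10 further assembly factors 4 fell, 5 did not pass and Pet117 was too low to test. Of all genes tested 17.0% were lower and 27.7% higher. Coa5, known from a fatal heart muscle disease of newborns with complex IV deficiency, stood at 69.5 and 76.4 in WT and at 33.3 and 31.4 in Klf9 KO. Its log2 fold change was -1.15 ± 0.18 (SE; limma adjusted p = 0.00116), and its knockout mean was 44.3% of the wild-type mean. Replicates lay close in both groups, which did not overlap. Pet100, an inner membrane factor of the assembly intermediates, stood at 8.36 and 13.2 in WT and at 3.93 and 5.70 in Klf9 KO (-1.004 ± 0.24; limma adjusted p = 0.00925). Coa4, a protein with paired cysteine motifs, stood at 7.24 and 10.6 in WT and at 4.35 and 4.99 in Klf9 KO (-0.79 ± 0.20; limma adjusted p = 0.0131). Coa3, which holds the newly made first core subunit, stood at 54.7 and 64.7 in WT and at 39.8 and 42.5 in Klf9 KO (-0.52 ± 0.19; limma adjusted p = 0.0487). Coa3 lay just inside the threshold. Its call was lost without either knockout library in turn, and those of Pet100 and Coa4 without Klf9 KO replicate 1.

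Cox14, the partner of Coa3 on the first core subunit, stood at 54.2 and 81.5 in WT and at 41.2 and 47.9 in Klf9 KO (-0.57 ± 0.23; limma adjusted p = 0.0729). Surf1, the Leigh syndrome gene, stood at 21.05 and 28.45 in WT and at 16.25 and 17.9 in Klf9 KO (-0.50 ± 0.20; limma adjusted p = 0.0722). Both lay just outside the threshold with the groups apart, and both were lower after RLE scaling. Cox20, a chaperone of the second core subunit, stood at 76.05 and 170.5 in WT and at 89.8 and 96.5 in Klf9 KO, with the knockout libraries between the wild-type ones. Cox18, which moves the tail of that subunit across the membrane, stood at 6.33 and 6.88 in WT and at 8.02 and 8.20 in Klf9 KO (0.26 ± 0.16). Coa7 stood at 5.19 and 3.62 in WT and at 6.18 and 6.41 in Klf9 KO (0.45 ± 0.19; limma adjusted p = 0.0871). Of the tested genes of this group, Cox18 and Coa7 had both knockout libraries above the wild-type ones, as did 45.2% of all genes tested. Pet117 stood at 0.01, the smallest step of the values, which can stand for 0, in both WT libraries and at 0.32 and 0.37 in Klf9 KO, and its exons lie wholly within those of Kat14 on the same strand.

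Of the 3 factors that act on mitochondrial messenger RNAs, 2 fell, where 17.0% of all genes tested were lower. Slirp, the small RNA-binding partner of Lrpprc, stood at 37.0 and 88.4 in WT and at 23.15 and 25.0 in Klf9 KO (log2 fold change -1.22 ± 0.34, SE; limma adjusted p = 0.0189). WT replicate 2 stood far above the other 3 libraries, and WT replicate 1 was also above both knockout libraries. Slirp shares 93.9% of its exonic bases with Snw1 on the opposite strand, which stood at 25.5 and 30.5 in WT and at 21.65 and 20.1 in Klf9 KO and did not pass. Taco1, the translational activator of the first core subunit, stood at 8.35 and 8.83 in WT and at 4.97 and 4.16 in Klf9 KO (-0.79 ± 0.17; limma adjusted p = 0.00577). Its call was lost without Klf9 KO replicate 2. Lrpprc, which stabilises most messenger RNAs of the mitochondrial genome, stood at 63.2 and 63.45 in WT and at 52.6 and 42.7 in Klf9 KO and did not pass (-0.41 ± 0.19; limma adjusted p = 0.112).

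The count of lower members moved with single libraries. Leaving out a library leaves 1 in its group, so the p-values then rest on the spread of the other group alone. It was 25 without WT replicate 1, 13 without WT replicate 2, 5 without Klf9 KO replicate 1 and 7 without Klf9 KO replicate 2, the library that went against its sex label. The share of all genes called lower moved with the same libraries, to 26.9%, 19.1%, 10.3% and 9.06% in that order, against 17.0% with all 4. Of the 12 lower members, Cox17, Sco2 and Coa5 were called lower under each of the 11 alternatives tried.

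**Figure D4:**
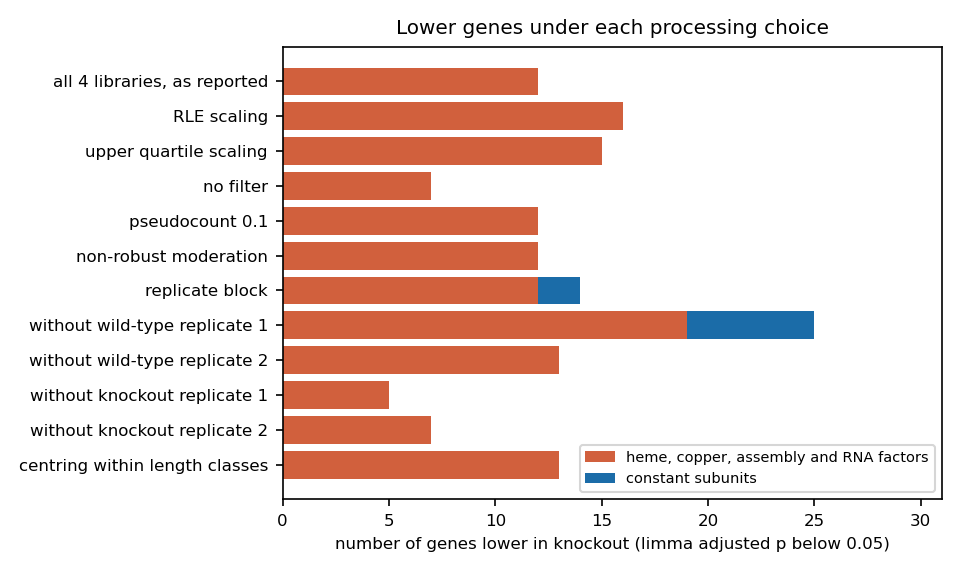
Number of members lower in the knockout (limma adjusted p below 0.05) with all 4 libraries and under each of 11 alternatives. Blue is the part contributed by constant subunits. Leaving out a library leaves 1 in its group, and the spread then comes from the other group alone. The count runs from 5 to 25, and constant subunits enter it only without WT replicate 1 (6 genes) and with the replicate number as a block (2 genes).

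Other genes of the enzyme were read from a list that holds no member. Of 27 tested, 10 fell, 2 rose and 15 did not pass. Among all genes tested 17.0% were lower and 27.7% higher. Those with the lowest p among the lower genes were Cox7a1, Chchd7 (62.75 and 88.6 against 39.8 and 38.6; log2 fold change -0.91 ± 0.21), Cox8b and Fastkd2 (15.9 and 21.2 against 10.2 and 10.5; -0.77 ± 0.19). Cox7a1 and Cox8b encode muscle isoforms, and Fastkd2 an RNA-binding protein of mitochondria. The 2 that rose were Cox6a1, the isoform of non-muscle tissue (189 and 218 against 290.4 and 367; 0.68 ± 0.22; limma adjusted p = 0.0353), and Mss51 (0.41 and 0.37 against 1.14 and 1.47; 0.73 ± 0.15). Of 8 tested subunit genes with tissue isoforms 3 fell and 1 rose, beside 0 and 1 of 7 constant subunits, and the difference between these counts was not tested. Cytochrome c, the substrate of complex IV, fell (Cycs, 256 and 522 against 202 and 193; limma adjusted p = 0.0492), as did Hccs, which attaches its heme (20.5 and 31.1 against 16.2 and 14.3; limma adjusted p = 0.0324).

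Markers of the cells a heart holds moved as follows. The summed level of 6 cardiomyocyte markers was 25799 and 29133 in WT and 29052 to 30691 in Klf9 KO, and 1 of the 6, Tnni3, fell. Such a sum weights each gene by its level and hides that the markers went both ways. Log2 fold changes were 0.44 in Myh6 and 0.50 in Myl2. They were -0.27 in Actc1, -0.48 in Tnnt2, -0.73 in Tnni3 and -0.47 in Ryr2. The 4 macrophage markers summed to 79.0 and 98.7 in WT and to 27.25 and 28.1 in Klf9 KO, and 3 fell. The 3 epicardial markers all rose, with sums of 4.90 and 6.46 in WT and 20.1 and 18.5 in Klf9 KO. Of 4 markers of smooth muscle and pericytes 3 rose and 1 fell, with sums of 245 and 305 in WT and 382 and 466 in Klf9 KO. Of 4 endothelial markers 2 rose, with sums of 323 and 289.6 in WT and 418 and 423 in Klf9 KO. Of 4 fibroblast markers 2 rose and 1 fell, with sums of 299.98 and 471 in WT and 514 and 579 in Klf9 KO. Sums of 3 red cell markers were 3775 to 4184 and 5111 to 7359, with 0 of 2 tested passing and Hbb-b1 at 0.01 to 0.29. Of 3 genes listed for skeletal muscle, Ckm stood at 1566 and 1457 in WT and at 1608 and 1556 in Klf9 KO and did not pass. Acta1 was lower (814 and 313 against 45.2 and 70.9), and Myh4 stood at 0.01 to 0.02. These values do not show whether the samples held skeletal muscle. In whole hearts, fewer cells of a type and less RNA per cell cannot be told apart, and the part of these markers in the results was not tested.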

How the data were processed

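Heart RNA was sequenced in 4 libraries, grouped and numbered by their sample titles. The deposited table (17485 genes) holds comparisons only. Per the file headers it gives, for each of 4 library pairs, a log2 ratio with Poisson-named p-value and false discovery rate, and for the groups a log2 ratio with p-value and q-value from DEGseq. One deposited false discovery rate column exceeds 1, was recorded as a score and was not used. Aligner, build, unit and depth are not given in the sources used here; without counts no interval or floor was computed.

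Values per library were recovered from the deposited log2 ratios. The 4 ratios were additive to within 9.9e-14 in the 16152 genes that have them all. Continued fractions resolved them into 4 smallest whole numbers, read as values in steps of 0.01, and missing ratios as values at that step. All 17485 genes were resolved. After moving the ratios by about 1e-06, 0% of 2000 genes were. Where a gene's 4 values had a common divisor, it is lost here, and the level but not the ratios is then too low.

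The planned count test could not be used on such a table, so its written fallback was: limma 3.58.1 in R 4.3.3 (trend and robust) on log2(value + 1) of 12135 genes with at least 1 in at least 2 libraries, group as the only term. Changes at low values are understated on this scale. The scripts were tested on simulated data. Python 3.11.15, numpy 2.4.6, pandas 2.3.3 and matplotlib 3.10.9 were used. Transcript lengths (GENCODE vM21, median per gene) were found for 12006 of the tested genes.

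The members and lists were chosen with earlier results of these data known. All members are named. Of the other complex IV genes, up to 4 with the lowest p in each direction are named. Cycs, Hccs, Kdm5d, Ddx3y, Tnni1, Esr1, overlapping genes and single cell type markers, Acta1 among them, were named after their values were seen. Alternatives were scaling by RLE or by the upper quartile, testing all genes, a pseudocount of 0.1, moderation without the robust setting, a replicate block, leaving out each library, and, added later, centring by length.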

Additional observations from a re-analysis of the deposited data

How the results depend on the processing

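With all 4 libraries 12 members were lower and 1 higher. Without a filter on low values 7 were lower and 2 higher, the second being Pet117, against 10.3% and 18.4% of all genes. Leaving out each library in turn gave 5 to 25 lower and 0 to 1 higher members, and among all genes 1100 to 3261 lower and 1859 to 4327 higher, as against 2061 and 3367. Each of these fits leaves 1 library in a group, so its p-values rest on the spread of the other group alone. The cause was not tested, beyond the loss of 1 library. The replicate block gave 14 lower members, with Cox11, Cox14, Cox6c and Cox7b added and Cox19 and Sco1 lost, and 2275 lower and 3514 higher genes in all (18.7% and 29.0%). The numbers do not pair the libraries by any label, and deviations of same-numbered libraries had a correlation of -0.0355 across 12135 genes. Leaving out each library in turn gave log2 fold changes of both signs for Cox6b1 (-0.71 to 0.026), Cox7c (-0.73 to 0.14), Cox10 (-0.30 to 0.0805), Cox15 (-0.014 to 0.249) and Cox20 (-0.87 to 0.29), turning without a WT library, and Cox15 was also negative after RLE scaling (-0.021) and centring by length (-0.16); the cause was not tested. Of the 330 values of single members under alternatives, 273 kept direction and side of the threshold, 28 newly passed, 22 no longer passed and 7 turned sign. The depth of the libraries is unknown, so what it limits cannot be stated.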
